A study of Homo sapiens with 24 samples.

Results

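Cells that sense viral nucleic acid or receive an interferon switch on a common set of genes whose products block viral replication. Type I interferons bind a receptor on the cell surface, the receptor kinases phosphorylate transcription factors, and these join IRF9 in a complex that binds promoters at the interferon-stimulated response element. The genes it switches on encode enzymes and binding proteins that act on viral RNA, viral particles and host proteins. Chondrocytes are the cells of cartilage and carry this response as most cells do.

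The 10 genes described here are OASL, OAS1, OAS2, OAS3, IFIT1, IFIT2, IFIT3, MX1, ISG15 and IFI44, each matched by its symbol to 1 Ensembl identifier among the 62703 genes counted. They were chosen by the low OASL counts of WNK2- Ctr against WT Ctr, one of the largest falls of that comparison, and the rest are other well-known interferon-induced antiviral genes. The values of that comparison are therefore given as a description and were not tested. RNA-seq read counts were analysed in 24 libraries, 4 in each of 6 groups, all of the human chondrocyte line T/C-28a2. WT Ctr cells were unmodified and kept in isotonic medium (300 mOsm), and WT Sor cells were kept for 7 days in medium with 100 mM sorbitol (400 mOsm). WNK2 trans Ctr and WNK2 trans Sor cells were unmodified cells that received a plasmid encoding wild-type WNK2, a kinase of the osmotic stress response, for 48 h before the same media. No library from cells given an empty plasmid was analysed here, so transfection and WNK2 cannot be told apart. In WNK2- Ctr and WNK2- Sor cells exon 2 of WNK2 was removed with CRISPR/Cas9, and the cells came from a clonal line, so the deletion and the clone cannot be told apart.

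The libraries held 14153002 to 25664619 counts, and every WNK2- library was deeper than every WT Ctr and WT Sor library. WNK2 itself ranged from 1217 to 2568 counts per library in WT Ctr and from 2237 to 3739 in WNK2 trans Sor. It ranged from 163 to 290 in the libraries labelled WNK2 trans Ctr, below every untransfected WT Ctr library and so against their label. The WT Sor libraries had 266 to 314 counts, those of WNK2- Ctr 440 to 501, and those of WNK2- Sor 322 to 503. In these counts WNK2 was lower in WT Sor than in WT Ctr by a log2 difference of −3.06 (SE 0.21, adjusted p = 1.52e-10). It did not separate the libraries labelled WT Sor from those of WNK2- Sor. The study instead reports no significant WNK2 change after sorbitol or transfection. Its normalized WNK2 values for WT Sor and WNK2 trans Ctr lie far above those found here. The directions given for comparisons with WT Sor rest on its label, and the cause of these WNK2 counts was not tested. Reads were counted over the gene as a whole, so exon 2 cannot be seen on its own. Of 10 chondrocyte markers, SOX9 was listed at 0 in all 24 libraries (its span, too, lies within another gene), COL2A1 averaged 6.14 to 179 normalized counts per group, and the list summed to between 69.6 and 563 normalized counts in a library. Of the leukocyte markers, PTPRC had at most 8.88 normalized counts in any library, while CD14 averaged 34.2 to 313 per group.

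Only some of the 10 genes could be measured. OASL had 9832 counts over the 24 libraries, ISG15 28638, IFI44 17665 and MX1 2236, and these 4 genes passed the filter on low counts. OAS1 had 52 counts in all, with at most 12 in any library, and did not pass. Its sums over 4 libraries were 2 in WT Ctr, 10 in WT Sor, 5 in the libraries labelled WNK2 trans Ctr, 22 in WNK2 trans Sor, 1 in WNK2- Ctr and 12 in WNK2- Sor. OAS2, OAS3, IFIT1, IFIT2 and IFIT3 were listed at exactly 0 in every library. A count of 0 over all 440580382 counts allows up to 3 counts, or 0.00681 CPM, and this limit covers counting error only.

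The genes at 0 share a position inside other genes. IFIT1 (GRCh38 chromosome 10, 89392546 to 89406486), IFIT2 (89283694 to 89309276) and IFIT3 (89327894 to 89340971) lie wholly within the span of LIPA, a lysosomal lipase gene on the opposite strand. OAS2 (chromosome 12, 112978395 to 113011723) and OAS3 (112938352 to 112973249) lie wholly within the span of AC004551.1, an antisense gene that also covers 96.8% of OAS1 (112906777 to 112933222). None of the exon bases of OAS2, OAS3, IFIT1 and IFIT3 is shared with another gene in the annotation used here, GENCODE 29. OASL (chromosome 12, 121019111 to 121039242) and IFI44 (chromosome 1, 78649796 to 78664078) overlap no other gene, and the overlap of MX1 (chromosome 21, 41420304 to 41459214) and ISG15 (chromosome 1, 1001138 to 1014540) is small, with 34258 of 38911 and 12052 of 13403 bases of their spans free. Reads from exons that MX1 or ISG15 shares with a gene on the opposite strand cannot be told apart without the strand, whose use in counting is not given in the sources used here.

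The same split held across the genome. Among 1768 protein-coding genes whose span lies wholly within other genes, 97.9% were at 0 in all 24 libraries, against 10.8% of 7185 genes with no overlap. Of the 658 enclosed genes that share no exon with another gene, 98.8% were at 0. IFIT5, a gene of the IFIT family just outside the span of LIPA, had 17305 counts. The 0 values of the 5 enclosed antiviral genes are therefore not read here as absence of their transcripts, and the counting step that gives such zeros was not tested.

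**Figure D1:**
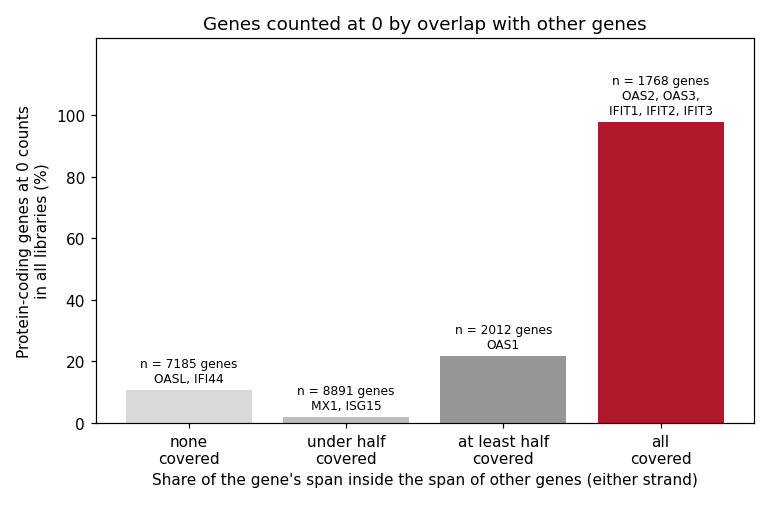
Share of protein-coding genes with 0 counts in all 24 libraries (vertical axis, percent) by how much of the gene's span lies within other genes on either strand, with the number of genes and the antiviral genes of each class above its bar. The share was 10.8% with no overlap, 2.13% with under 50% covered, 21.8% with at least 50% covered, and 97.9% for the enclosed class that holds OAS2, OAS3, IFIT1, IFIT2 and IFIT3.

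The promoters are shown because the interferon-stimulated response element is what members of this response have in common. RefSeq promoter windows (GRCh38.p14, 250 bases before to 50 bases after a start) were held for OAS1, OAS3, IFIT1, IFIT3, MX1, ISG15 and IFI44. OASL, OAS2 and IFIT2 are named only. The motif searched on both strands was GAAA-NN-GAAA (N, any base), the core of the element. It was found in 6 of these 7 genes and in 9 of their 11 windows, against 3.57% of 35116 windows of the same length, and in 45.9% of 85 genes from the other interferon lists. The OAS1 window held no match. The 30 bases around a match are given on the strand that reads as the motif, with the matching bases in capitals; in ISG15 a pair of overlapping matches forms 1 run.
ISG15, chr1:1013377-1013406, plus strand, 113 to 98 bases before the start: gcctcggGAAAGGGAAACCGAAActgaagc
IFI44, chr1:78649761-78649790, minus strand, 18 to 9 bases before its first start: tcagagaaagGAAACTGAAActcagtgtgc
MX1, chr21:41420559-41420588, plus strand, 12 to 21 bases after its first start: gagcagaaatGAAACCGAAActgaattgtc
OAS3, chr12:112938321-112938350, plus strand, 143 to 134 bases before the start: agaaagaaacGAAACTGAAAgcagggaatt
IFIT3, chr10:89327865-89327894, minus strand, 122 to 113 bases before its first start: gaggaaactgGAAAGTGAAActaatttaaa
A match describes these letters only, and no binding was measured.

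OASL, a relative of the OAS enzymes that has lost their catalytic activity and aids RNA sensing by RIG-I, had the widest range of the 4 measured genes. Normalized counts (counts scaled to a common library size) were 808, 1155, 799 and 599 in WT Ctr and 475, 434, 529 and 544 in WT Sor. They were 618, 557, 600 and 692 in the libraries labelled WNK2 trans Ctr and 794, 761, 481 and 583 in WNK2 trans Sor. They were 18.9, 24.6, 22.4 and 19.99 in WNK2- Ctr and 38.9, 53.4, 53.1 and 46.7 in WNK2- Sor. All 8 WNK2- libraries lay far below the other 16, and the WNK2- Sor libraries lay above all WNK2- Ctr libraries. The order of the means was WT Ctr, WNK2 trans Sor, WNK2 trans Ctr, WT Sor, WNK2- Sor and WNK2- Ctr, in which the first 3 groups each overlapped with the next of them, while WNK2 trans Ctr did not overlap with WT Sor, nor any lower group with its neighbour.

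IFI44, an interferon-induced gene of the cytoplasm, had a similar order with a different top. It had 825, 1627, 1360 and 936 normalized counts in WT Ctr and 650, 636, 802 and 703 in WT Sor. It had 869, 749, 759 and 897 in the libraries labelled WNK2 trans Ctr and 1603, 1856, 1602 and 1510 in WNK2 trans Sor. It had 163, 140, 151 and 167 in WNK2- Ctr and 195, 196, 183 and 200 in WNK2- Sor. The WNK2 trans Sor mean was the highest, though WT Ctr replicate 2 lay within its range, and neighbouring groups overlapped down to WT Sor. Both WNK2- groups lay below every other library and did not overlap with each other.

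ISG15, a ubiquitin-like protein that is attached to other proteins, varied less. It had 1488, 1015, 1112 and 1282 normalized counts in WT Ctr and 1273, 1329, 1312 and 1342 in WT Sor. It had 964, 1014, 1503 and 1379 in the libraries labelled WNK2 trans Ctr and 3798, 1554, 1897 and 1946 in WNK2 trans Sor. It had 772, 660, 554 and 715 in WNK2- Ctr and 674, 777, 700 and 760 in WNK2- Sor. The WNK2 trans Sor libraries lay above all others, with replicate 1 far above the rest of its group, and the WNK2- libraries lay below all others. WT Sor, WT Ctr and the libraries labelled WNK2 trans Ctr overlapped.

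MX1, a GTPase that traps the nucleocapsids of influenza and other viruses, had the fewest counts of the 4. It had 63.9, 66.3, 59.5 and 63.7 normalized counts in WT Ctr and 66.4, 105, 94.4 and 73.5 in WT Sor. It had 33.6, 45.9, 47.2 and 36.8 in the libraries labelled WNK2 trans Ctr and 302, 240, 273 and 212 in WNK2 trans Sor. It had 48.3, 54.7, 66.4 and 72.5 in WNK2- Ctr and 60.1, 65.0, 61.8 and 64.5 in WNK2- Sor. The WNK2 trans Sor libraries stood apart above all others, and WT Ctr overlapped with both WNK2- groups.

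**Figure D2:**
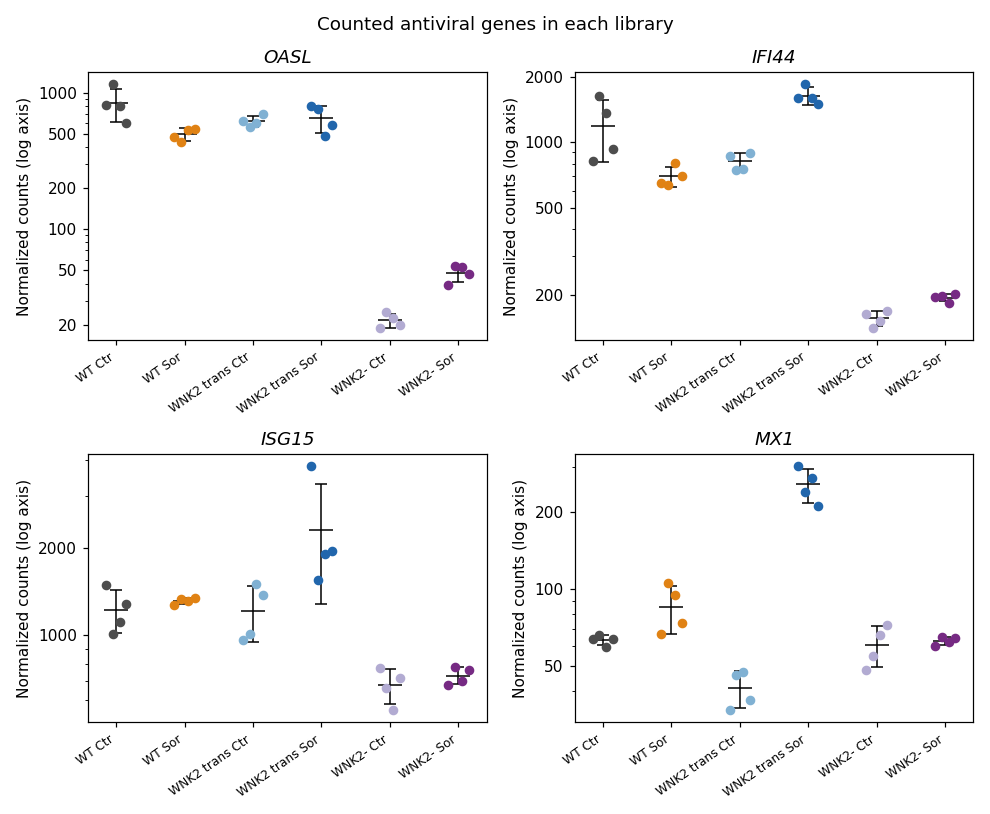
Normalized counts of OASL, IFI44, ISG15 and MX1 (vertical axes, log scale) in the 6 groups, each point a library and each bar the mean ± SD of 4 libraries. OASL means ran from 21.5 in WNK2- Ctr to 840 in WT Ctr, while MX1 was highest in WNK2 trans Sor with a mean of 257.

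The comparison of WNK2- Ctr with WT Ctr chose the members and is described without a test. OASL averaged 21.5 ± 2.54 normalized counts in WNK2- Ctr and 840 ± 231 in WT Ctr (SD, n = 4 each), a fitted difference of 38.9-fold. In bulk RNA fewer cells that express a gene and less RNA per cell cannot be told apart. IFI44 was 7.63-fold lower in WNK2- Ctr and ISG15 1.81-fold lower. MX1 averaged 60.5 in WNK2- Ctr and 63.4 in WT Ctr. Every WNK2- Ctr library lay below every WT Ctr library in OASL, IFI44 and ISG15, while MX1 overlapped. The share of all tested genes split in this way was not computed, so nothing is read from how many members did so. By the different measure of an adjusted p under 0.05, 42.1% of the 16600 tested genes passed in this comparison, 21.5% lower, and nothing is read from that share, since the comparison chose the members.

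The comparison of WNK2- Sor with the libraries labelled WT Sor asks whether the genotypes differ under hyperosmotic medium. WNK2 itself averaged 359 normalized counts in WNK2- Sor and 303 in WT Sor (log2 difference 0.25, SE 0.20, adjusted p = 0.330). The WNK2- cells are those of the clone in which OASL was chosen for its low counts, so its difference here, −3.37 on the log2 scale or 10.3-fold, is given as a description without a test. IFI44, ISG15 and MX1 were lower in WNK2- Sor at an adjusted p under 0.05, where 46.3% of the 16600 tested genes passed, 22.7% lower and 23.7% higher. IFI44 fell by 1.85 on the log2 scale (SE 0.15, adjusted p = 2.98e-10) and ISG15 fell by 0.85 (SE 0.20, adjusted p = 0.000842). MX1 fell by 0.43 (SE 0.17, adjusted p = 0.0375), the smallest of the 4. In each of the 4 genes, OASL included, every WNK2- Sor library lay below every WT Sor library. The share of all tested genes split in this way was not computed, so nothing is read from that count. The log2 differences of IFI44, ISG15 and MX1, −1.85, −0.85 and −0.43, stand beside a median of 0.02 for all tested genes. The MX1 call was lost without WT Sor replicate 2 (−0.32, adjusted p = 0.158), without WT Sor replicate 3 or any 1 of the WNK2- Sor libraries, with DESeq2, with upper-quartile factors, with no filter and with thinned counts, with adjusted p between 0.0167 and 0.158 over its alternatives. The chondrocyte marker list moved in the same direction, with 4 of 6 tested markers lower in WNK2- Sor and its sum between 69.6 and 86.0 normalized counts there and between 317 and 338 in WT Sor. The leukocyte marker sum was 100 to 116 in WNK2- Sor and 204 to 296 in WT Sor, with 1 of 2 tested markers lower. The endothelial sum was 433 to 568 and 944 to 1092, with 1 of 3 tested markers lower and 1 higher. The part of these in the result was not tested.

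Sorbitol in WT cells was compared between the libraries labelled WT Sor and WT Ctr. IFI44 fell in WT Sor by 0.77 on the log2 scale (SE 0.15, adjusted p = 0.000437), with no overlap between the groups. OASL also fell without overlap, by 0.76, which is given without a test. MX1 differed by 0.42 (SE 0.17, adjusted p = 0.0770) and ISG15 by 0.10 (SE 0.19, adjusted p = 0.746), and neither passed. Thus among IFI44, MX1 and ISG15 only IFI44 was lower and none was higher, where 24.1% of tested genes passed, 12.7% lower and 11.4% higher. The MX1 difference passed the threshold without WT Sor replicate 1 (0.52, adjusted p = 0.0420, range 0.0420 to 0.255 over its alternatives) and under a filter that kept genes with 10 or more counts in each library (0.46, adjusted p = 0.0458). This comparison shares its WT Ctr libraries with the one that chose the members, and the choice of OASL for high counts there favours a fall.

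In WNK2- cells the OASL libraries with sorbitol lay above those without. Its raw counts per library were 20 to 27 in isotonic medium and 50 to 64 with sorbitol, a log2 difference of 1.15 that is given without a test, because its choice for low counts in WNK2- Ctr favours this direction. In WNK2- Sor against WNK2- Ctr none of the other 3 measured genes passed, where 14.9% of tested genes passed, 8.25% higher and 6.64% lower. IFI44 differed by 0.32 (SE 0.16, adjusted p = 0.200), MX1 by 0.05 (SE 0.17, adjusted p = 0.887) and ISG15 by 0.11 (SE 0.20, adjusted p = 0.783). In WNK2- Sor OASL had a mean of 48.04 ± 6.81 normalized counts, against 495 ± 50.7 in WT Sor (SD, n = 4 each).

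Transfection in isotonic medium was compared with the libraries labelled WNK2 trans Ctr, whose WNK2 counts go against their label. MX1 fell by 0.62 on the log2 scale against WT Ctr (SE 0.18, adjusted p = 0.0236) and IFI44 fell by 0.54 (SE 0.14, adjusted p = 0.0140). ISG15 differed by −0.01 (SE 0.19, adjusted p = 0.982). OASL differed by −0.45, which is given without a test, because its choice for high WT Ctr counts favours a fall here as well. Among IFI44, MX1 and ISG15, 2 were thus lower, where 12.5% of tested genes passed, 6.98% lower and 5.57% higher. This count dropped to 0 without WT Ctr replicate 2, which left IFI44 at −0.35 (adjusted p = 0.108) and MX1 at −0.60 (adjusted p = 0.0643), and to 1 without WT Ctr replicate 3 or the transfected replicate 1 or 4. Over the alternatives the adjusted p ran from 0.000720 to 0.157 for IFI44 and from 0.0219 to 0.147 for MX1.

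With both transfection and sorbitol, MX1, IFI44 and ISG15 were higher than with sorbitol alone. MX1 rose in WNK2 trans Sor against the libraries labelled WT Sor by 1.60 on the log2 scale (SE 0.16, adjusted p = 4.43e-08), a 3.02-fold difference. IFI44 rose by 1.23 (SE 0.15, adjusted p = 4.39e-07) and ISG15 by 0.81 (SE 0.19, adjusted p = 0.00249), both with no overlap between the groups. OASL differed by 0.40 (SE 0.16, adjusted p = 0.0586). The 3 genes stand beside 31.7% of tested genes that passed, 16.1% higher and 15.5% lower, and the median of the 4 members was 1.02 against 0.01 for all tested genes. The ISG15 difference was 0.44 (adjusted p = 0.0164, range 0.000309 to 0.0206 over its alternatives) without WNK2 trans Sor replicate 1, the library with 3798 normalized counts. OASL passed without WNK2 trans Sor replicate 3 (0.52, adjusted p = 0.0185), without WT Ctr replicate 2 or replicate 4, and with upper-quartile factors (0.44, adjusted p = 0.0455), with adjusted p from 0.0185 to 0.189 over its alternatives. The chondrocyte marker sum was 98.4 to 140 normalized counts in WNK2 trans Sor, below its range of 317 to 338 in WT Sor, with 5 of 6 tested markers lower. The leukocyte sum was 99.4 to 163 against 204 to 296, with 1 of 2 tested markers lower. The endothelial sum overlapped, 836 to 1017 against 944 to 1092, with none of 3 tested markers called. The part of these in the result was not tested.

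Against the libraries labelled WNK2 trans Ctr the WNK2 trans Sor libraries had higher MX1 by 2.64 on the log2 scale (SE 0.17, adjusted p = 4.69e-12), a 6.22-fold difference. IFI44 rose by 1.01 (SE 0.14, adjusted p = 3.4e-06) and ISG15 by 0.92 (SE 0.19, adjusted p = 0.000394), while OASL differed by 0.09 (SE 0.16, adjusted p = 0.682). The count of 3 higher members compares with 48% of tested genes that passed, 24.3% higher and 23.7% lower. The ISG15 difference was 0.55 (adjusted p = 0.00204, range 1.58e-05 to 0.0159 over its alternatives) without WNK2 trans Sor replicate 1. The chondrocyte marker sum was 98.4 to 140 normalized counts in WNK2 trans Sor and 476 to 563 in the libraries labelled WNK2 trans Ctr, with 5 of 6 tested markers lower and 1 higher. The leukocyte sum was 99.4 to 163 against 286 to 444, with 1 of 2 lower. The endothelial sum went the other way, 836 to 1017 against 482 to 761, with 1 of 3 tested markers higher and 1 lower. The part of these in the result was not tested.

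The response to sorbitol differed between transfected and untransfected cells in MX1, IFI44 and ISG15, by a test of the difference itself. The interaction was 2.22 on the log2 scale for MX1 (SE 0.24, adjusted p = 9.97e-08), 1.77 for IFI44 (SE 0.21, adjusted p = 2.41e-07) and 0.82 for ISG15 (SE 0.27, adjusted p = 0.0224). For OASL it was 0.85, given without a test, because its choice for high WT Ctr counts favours this direction. In this test 35.5% of genes passed, 18.1% higher and 17.4% lower. ISG15 lost the call without WNK2 trans Sor replicate 1 (0.44, adjusted p = 0.0709) without the transfected isotonic replicate 1 or 2, and with the compared groups alone (adjusted p = 0.0555), with adjusted p from 0.00697 to 0.0709 over its alternatives. All 4 values rest on the libraries labelled WNK2 trans Ctr and on the WT Ctr libraries used to choose the members.

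**Figure D3:**
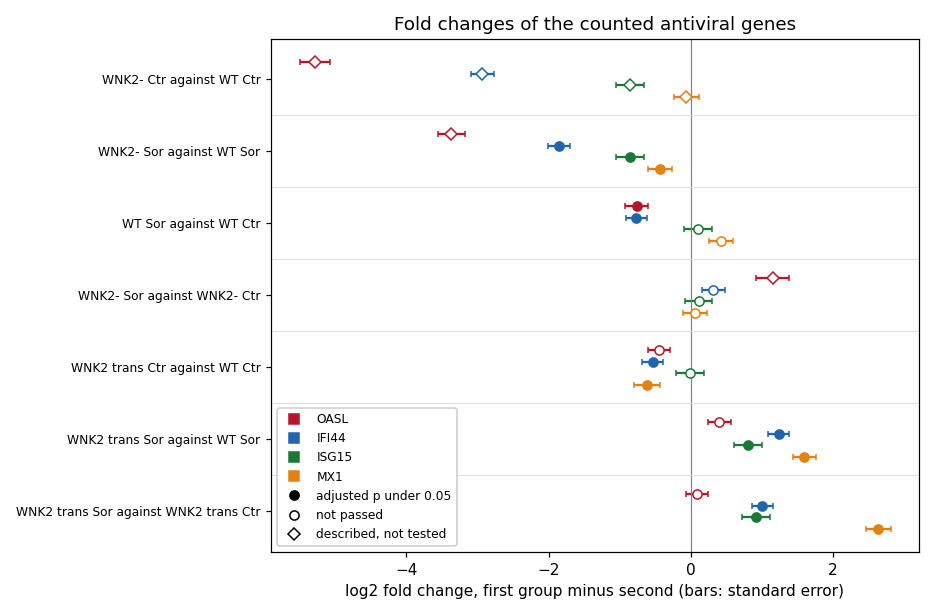
Fitted log2 fold changes of OASL, IFI44, ISG15 and MX1 (horizontal axis, bars are standard errors) in 7 comparisons, with filled circles for an adjusted p under 0.05 and diamonds for values described without a test. OASL in WT Sor against WT Ctr is drawn as a filled circle and in WNK2 trans Ctr against WT Ctr as an open circle, though both values are described without a test. OASL lay at −5.28 and −3.37 in the comparisons of WNK2- with WT, while MX1 reached 2.64 in WNK2 trans Sor against the libraries labelled WNK2 trans Ctr.

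Because OASL led the choice of members, the genes whose pattern over the 24 libraries was most like it were listed. The measure was the root mean square difference of log2 CPM (depth-scaled counts) after centring each gene, where OASL's own spread was 2.03. The nearest of the 16600 genes were ZNF521, a zinc finger protein, at 0.475, CH25H, which makes 25-hydroxycholesterol, at 0.558, CCL11, an eosinophil chemokine, at 0.569, GALC, a lysosomal galactosylceramidase, at 0.589, and SLC4A4, a sodium bicarbonate cotransporter, at 0.598. ZNF521 averaged 5.73 and 11.8 normalized counts in WNK2- Ctr and WNK2- Sor and 133 to 166 in the other groups. CCL11 was at 0 in all WNK2- Ctr libraries and averaged 82.2 in WT Ctr. Among the members the nearest to OASL was IFI44, at 0.904, and MX1 and ISG15 were nearest to each other, at 0.633. These values describe the 24 libraries, whose groups share cells and media. The genes outside the members were picked for likeness to OASL, so their low WNK2- levels follow from that choice and nothing is read from them.

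The interferon genes that act before and beside the members were counted over lists with 106 genes in all, of which 16 were at 0 and 82 were tested. Among the ligands, the zeros of IFNG, IFNE and IFNK are not read as absence, since their spans lie within other genes. The others had few counts or none, with IFNB1 at 15 counts over the 24 libraries, 10 of them in WNK2 trans Sor, IFNL1 at 8, IFNL2 at 2 and IFNA5 at 1. In WNK2- Sor against WT Sor 52 of the 82 genes were lower and 9 higher, with a median of −0.65, beside the 22.7% and 23.7% of all tested genes. In WNK2 trans Sor against WT Sor 37 were higher and 7 lower, with a median of 0.30, beside 16.1% and 15.5%. With sorbitol in WT cells 8 were higher and 10 lower, shares near the 11.4% and 12.7% of all tested genes. In WNK2- cells 6 were higher and 12 lower with sorbitol, beside 8.25% and 6.64%, and in the libraries labelled WNK2 trans Ctr against WT Ctr 4 were higher and 12 lower, beside 5.57% and 6.98%. Against the libraries labelled WNK2 trans Ctr, WNK2 trans Sor had 39 higher and 16 lower, beside 24.3% and 23.7%, and the interaction had 34 higher and 9 lower, beside 18.1% and 17.4%. The counts of each list below stand beside the same all-gene shares, and a count near them says nothing particular of its list.

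The enzymes that attach ISG15 were all lower in WNK2- Sor, 5 of 5 with the protease that removes it, and 3 were higher and 1 lower in WNK2 trans Sor against WT Sor. UBA7, the activating enzyme, averaged 120 normalized counts in WNK2- Sor, 732 in WT Sor and 533 in WNK2 trans Sor, a fall in both comparisons. The ligase HERC5 averaged 459, 976 and 1794 in the same order, and the related HERC6 295, 520 and 1840, so that both fell in WNK2- Sor and rose in WNK2 trans Sor. The conjugating enzyme UBE2L6 fell by 0.80 in WNK2- Sor and differed by 0.07 in WNK2 trans Sor (adjusted p = 0.692). The activating enzyme was thus lower in WNK2 trans Sor while ISG15, HERC5 and HERC6 were higher.

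Of the 5 tested receptor subunits 4 were lower in WNK2- Sor and 3 in WNK2 trans Sor, both against WT Sor, and none was higher. IFNAR1, of the type I receptor, averaged 2967 normalized counts in WNK2- Sor, 3534 in WT Sor and 3958 in WNK2 trans Sor, and only the first difference passed (adjusted p = 0.0326). The type II receptor genes IFNGR1 and IFNGR2 fell by 1.27 and 1.25 in WNK2- Sor, and they fell by 0.51 and 0.91 in WNK2 trans Sor. Of the 6 receptor kinases and parts of the complex with IRF9 5 were lower in WNK2- Sor, and 2 were higher in WNK2 trans Sor. TYK2 fell by 0.35 in WNK2- Sor (adjusted p = 0.0227), and JAK1 differed by 0.25 (adjusted p = 0.0546).

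Of 6 other interferon regulatory factors 4 were lower and 1 higher in WNK2- Sor, and 1 was lower in WNK2 trans Sor. IRF7 and IRF3, which switch on interferon genes, fell by 1.16 and 0.80 in WNK2- Sor, IRF2 fell by 0.34, and IRF3 fell by 0.46 in WNK2 trans Sor. Of 12 sensors and adaptors of the nucleic acid pathways 4 were lower and 1 higher in WNK2- Sor, and 3 were higher in WNK2 trans Sor. MAVS, the mitochondrial adaptor, rose by 0.44 in WNK2- Sor, EIF2AK2, the kinase PKR, rose by 0.45 in WNK2 trans Sor, and the RNA editing enzyme ADAR passed in neither. Of 5 negative regulators 2 were lower and 1 higher in WNK2- Sor, and 3 were higher and 1 lower in WNK2 trans Sor. SOCS3, which inhibits the receptor kinases, fell by 0.73 and 1.01 in these comparisons, PTPN2, a tyrosine phosphatase, rose by 0.39 and 0.41, and TRIM21 rose by 0.43 in WNK2 trans Sor. PDE12, a phosphodiesterase, and ABCE1, an ATPase, went against most of the listed genes and rose in WNK2- Sor by 0.74 and 0.73.

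Among 41 other interferon-induced genes 28 were lower and 4 higher in WNK2- Sor against WT Sor, and 26 were higher and 1 lower in WNK2 trans Sor against WT Sor. The most abundant of them were LGALS3BP, HELZ2 and PARP14. LGALS3BP averaged 3853 normalized counts in WNK2- Sor and 7640 in WT Sor, HELZ2 953 and 2844, and PARP14 748 and 2129, and all 3 fell. In WNK2 trans Sor PARP14 rose to 3511, whereas LGALS3BP at 6213 and HELZ2 at 2753 did not pass. Some genes were singled out after their values were seen. RSAD2, the antiviral enzyme viperin, averaged 103 in WNK2 trans Sor, 15.7 in WT Sor and 4.04 in WNK2- Sor. XAF1, a proapoptotic gene, had 5 counts over the 4 WNK2- Ctr libraries and 2 over the 4 WNK2- Sor libraries, against 273 in WT Ctr and 555 in WT Sor.

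**Figure D4:**
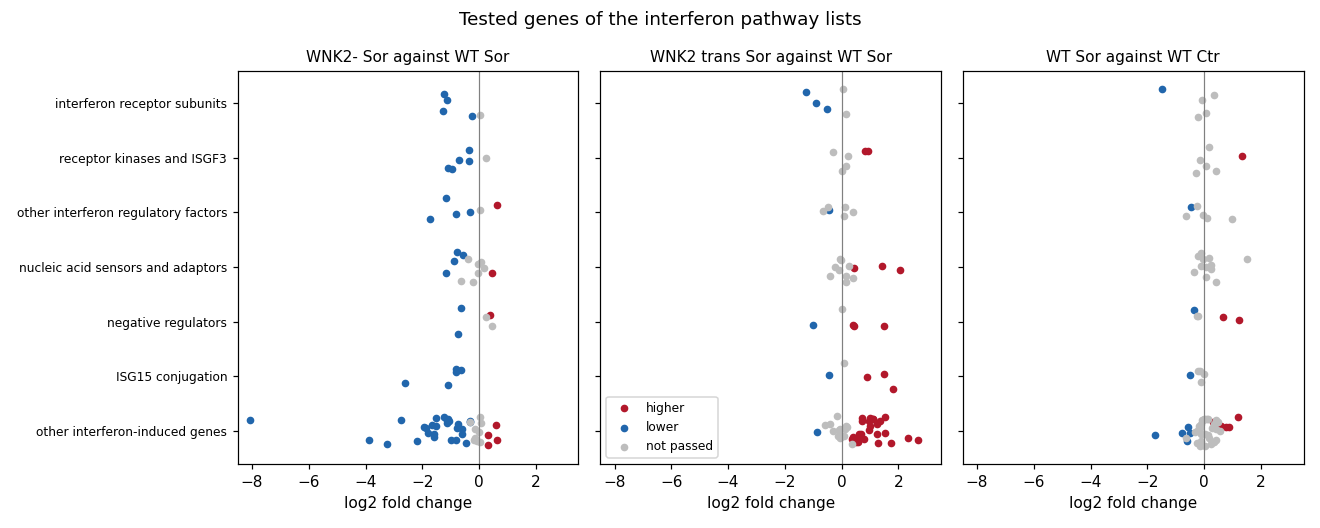
Fitted log2 fold changes (horizontal axes) of the tested genes of 7 interferon pathway lists (vertical axis) in 3 comparisons, each point a gene, red where higher and blue where lower at an adjusted p under 0.05 and grey otherwise, with the vertical scatter within a list arbitrary. Of the other interferon-induced genes 28 lie left of 0 in blue for WNK2- Sor against WT Sor, and 26 lie to the right in red for WNK2 trans Sor against WT Sor.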

How the data were processed

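Poly(A) RNA libraries were sequenced, and the authors deposited raw read counts per Ensembl gene for each of the 24 libraries used here, without normalization. The submitters' processing notes name FastQC 0.11.9, HISAT2 2.2.1, HTSeq 2.0.2, DESeq2 1.38.3 and the GRCh38 build; the annotation release and the use of strand in counting are not given in the sources used here. Groups and replicate numbers follow the labels, and the study's methods call the 4 libraries of a group biological replicates. Of the identifiers, 62625 matched a symbol and 78 did not.

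The members and gene lists were chosen with earlier results of these data known. All 24 libraries were fitted together as 6 group means with edgeR 4.0.16 (R 4.3.3), TMM factors and the quasi-likelihood test, after filterByExpr (minimum count 10, total 15) left 16600 genes. P-values were adjusted by Benjamini-Hochberg over those genes within each comparison and called under 0.05. A standard error is the size of a log2 fold change over the square root of its F. For normalized counts each library was scaled by TMM to the mean effective size, and likeness used log2 CPM with a prior count of 2. The test was also run on counts simulated from its own fitted spread, the same in every group. That run cannot show how the test behaves where groups differ in spread. Named genes were the 10 members, the 3 most abundant genes of each list, and the 5 nearest to OASL. Some genes of these lists are not reported here. UBA7 and the genes singled out as such were added after their values were seen. Alternatives were DESeq2 1.42.0, RLE and upper-quartile factors, other filters, thinning, the compared groups alone, the replicate block, each library left out, and, chosen after seeing the data, a fit without the libraries labelled WNK2 trans Ctr. All 36 pairs of replicate libraries differed by more than counting noise (chi-square over its degrees of freedom 2.30 to 67.9), so none was a copy. Positions come from GENCODE 29, which held 58279 of the genes.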

Additional observations from a re-analysis of the deposited data

Results flagged for a closer look

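The response to sorbitol differed between transfected and untransfected cells, with interactions of 1.77 for IFI44, 2.22 for MX1 and 0.82 for ISG15 on the log2 scale, in a test that 35.5% of genes passed. ISG15 lost the call without WNK2 trans Sor replicate 1 (0.44, adjusted p = 0.0709). All 3 values rest on the labels of WNK2 trans Ctr and WT Sor. The OASL interaction of 0.85 is given without a test, since its choice for high WT Ctr counts favours this direction. The sorbitol libraries of OASL and IFI44 lay on opposite sides of their controls in WT and WNK2- cells, with no overlap in either. OASL was at −0.76 in WT and 1.15 in WNK2- cells, and IFI44 was at −0.77 and 0.32. The difference between the genotypes was not tested, since OASL was chosen for low WNK2- Ctr and high WT Ctr counts, which favours these directions, and the IFI44 value in WNK2- cells did not itself pass (adjusted p = 0.200).

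In 3 of the 30 groups of 4 libraries examined for a library far from the others, the highest OAS1 library took up the whole range, with a gap of 1.0 of that range. These were WT Ctr, with 2 counts in 1 library, WNK2- Ctr, with 1 count, and the libraries labelled WNK2 trans Ctr, with 5 counts, and the remaining libraries of each group were at 0. The gap is 1.0 whenever only 1 of 4 libraries has any count, so these flags say nothing beyond the low counts of OAS1.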

How the results depend on the processing

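Of 912 log2 fold changes of the 4 measured genes in the comparisons other than WNK2- Ctr against WT Ctr under other settings, 872 kept their direction and their side of the threshold, 23 were no longer called, 8 became called and 9 turned sign. These 912 include OASL in comparisons where it is described without a test, so nothing is read from its part in them. For WNK2 trans Ctr against WT Ctr the count of members called was 1 with no filter on low counts, 1 with counts thinned to the smallest library, and 0 with the compared groups alone. Leaving out 1 library gave 0 to 3 of them, where the 3 included OASL, which is described there without a test. For WNK2- Sor against WNK2- Ctr, where OASL is also given without a test, the groups alone called IFI44 at 0.31 (adjusted p = 0.0324, range 0.0324 to 0.397). No other alternative called IFI44, MX1 or ISG15 in that comparison. With the groups alone the calls over all genes were 4824 in place of 2473 for WNK2- Sor against WNK2- Ctr, and 747 in place of 2082 for WNK2 trans Ctr against WT Ctr.

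Values that turned sign were near 0 and never called. In WNK2- Ctr against WT Ctr, MX1 was 0.034 without WNK2- Ctr replicate 1, in place of −0.06. ISG15 in WNK2 trans Ctr against WT Ctr was 0.000634 with at least 10 counts in every library, 0.00953 with the replicate block, and −0.13 to 0.089 with 1 library left out. OASL in WNK2 trans Sor against WNK2 trans Ctr was −0.034 without WNK2 trans Sor replicate 1 and up to 0.204 with another left out. MX1 in WNK2- Sor against WNK2- Ctr was −0.0513 and −0.00372 without WNK2- Ctr replicates 1 and 2, and up to 0.145 with another left out. The cause was not tested.

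Same-numbered libraries correlated at −0.27 to 0.22 in their deviations from the group means. In WNK2- Ctr against WT Ctr 2 of 4 same-numbered pairs were over 0.1, other pairs reached at most 0.046, and 3 WNK2- Ctr libraries were most like their own number. In the other comparisons at most 1 of 4 pairs was over 0.1. Whether the numbers pair samples of WNK2- Ctr and WT Ctr is thus not settled, and the replicate block changed no call of a member. MX1 had 27 to 93 counts per library outside WNK2 trans Sor, though its standard errors were no larger than those of ISG15.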
